A study of Danio rerio with 3 samples.

Results

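Resting Müller glia after the ablation of Lws2 cones were compared with those of larvae without ablation. Cells were taken as resting Müller glia when glula and apoeb together made up at least 150 of every 10000 UMIs of the cell (a UMI tags 1 captured RNA molecule) and when mki67, top2a, cdk1, pcna, mcm5 and rrm2.1 had at most 2 UMIs in total. The rule found 2041 of 10430 kept cells after Lws2-ablation (19.6%, 18.8 to 20.3%) and 4915 of 8190 kept cells of the control (60.0%, 58.9 to 61.1%), together 6956 of the 26471 kept cells of the series. The cells were thus chosen by measured values, and the levels of these genes and the shares of resting cells are given as a description.

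Zebrafish larvae carrying the transgenes lws2:nfsb-mCherry, gfap:GFP and her4.1:dRFP gave the Lws2-ablation library, and larvae with gfap:GFP and her4.1:dRFP alone gave the control library. In the ablation line the lws2 promoter drives bacterial nitroreductase in red cones, which turns metronidazole into a toxin inside those cells. Larvae of both lines received 10 mM metronidazole for 48 h from 6 dpf, so that the control differs by the transgene and not by the drug, and their labels place the collection at 9 dpf, or 3 days post injury. The study's text gives a different age at another point for its uninjured larvae. Gfap:GFP cells were sorted and sequenced as droplet libraries, 1 library for each condition, from pooled larvae whose number is not stated. The third library of the series, labelled Sws2-ablation, comes from the corresponding sws2 line and is set beside some values only. With 1 library a side there is no replicate check, and no test, p-value or standard error is given for any difference. Intervals are 95% and exact (Poisson for levels and ratios, binomial for shares), and they cover counting error only. Both chemistry versions of the kit are named for the study without their libraries, so kit version and condition cannot be told apart.

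Müller glia span the retina and support its neurons by clearing glutamate, buffering ions and water, and supplying lipids and metabolites. In zebrafish they also answer the death of neurons by becoming reactive, re-entering the cell cycle and giving rise to progenitors that replace lost cells. The known steps include cytokine and Stat3 signals, stress and AP-1 genes, and a reprogramming stage with factors such as Ascl1a. Cells that still carry glial genes and do not divide can therefore be at rest or reactive.

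The resting glia held 13117597 UMIs after Lws2-ablation and 24450177 UMIs in the control. Their median depth was 6239 UMIs and 1830 genes per cell after Lws2-ablation, against 4600 UMIs and 1447 genes in the control, and mitochondrial UMIs made up a median of 1.82% after Lws2-ablation, against 1.04% in the control. EGFP from gfap:GFP was seen in 86.3% of these cells after Lws2-ablation, against 87.2% in the control. The Lws2-ablation and control libraries shared 28 barcodes, of which 1 was resting glia in both. Glial genes outside the rule followed the label: rlbp1a, which carries retinoids in glia, had 3542 CPM (UMIs of the summed cells scaled to a total of 1000000) in resting glia and 867 CPM in the other cells after Lws2-ablation, and 2881 and 1423 CPM in the control. The glutamate transporter gene slc1a2b had 2693 and 331 CPM after Lws2-ablation, and 2822 and 681 CPM in the control. The combined level of glula and apoeb had a median of 306 per 10000 UMIs after Lws2-ablation and 341 in the control, and the range from 100 to 150, just outside the rule, held 372 cells after Lws2-ablation and 510 in the control, while 341 and 591 cells in the same order lay from 150 to 200. A further 79 cells after Lws2-ablation and 57 in the control had the glial level and more than 2 UMIs of the proliferation genes. Cells with 2 such UMIs, just inside, numbered 161 after Lws2-ablation and 176 in the control, and those with 3 numbered 36 and 28 in the same order.

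Of the genes in the files, 7065 reached 10 CPM in resting glia of either library, with glula and apoeb left out. With 1 CPM added to both levels, 448 genes (6.34%) were at least 2-fold higher after Lws2-ablation than in the control, and 245 genes (3.47%) were at least 2-fold lower. The other 6372 genes (90.2%) lay within 2-fold, and the median log2 ratio was 0.05. At least 4-fold differences were more often higher (80 genes) than lower (18 genes). For 325 of the higher and 149 of the lower genes the whole counting interval lay past 2-fold. The split between higher and lower depended on the scaling: with library sizes scaled by edgeR's trimmed mean of M values (TMM) every log2 ratio was lower by 0.31, the median became -0.26, and 240 genes were higher and 629 lower. Ratios below are on the CPM scale, and a gene is called higher or lower when it is at least 2-fold apart with 1 CPM added. Log2 ratios printed with an interval have nothing added. Medians and log2 ratios printed without an interval have 1 CPM added, except where an alternative setting adds 5 CPM.

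**Figure D1:**
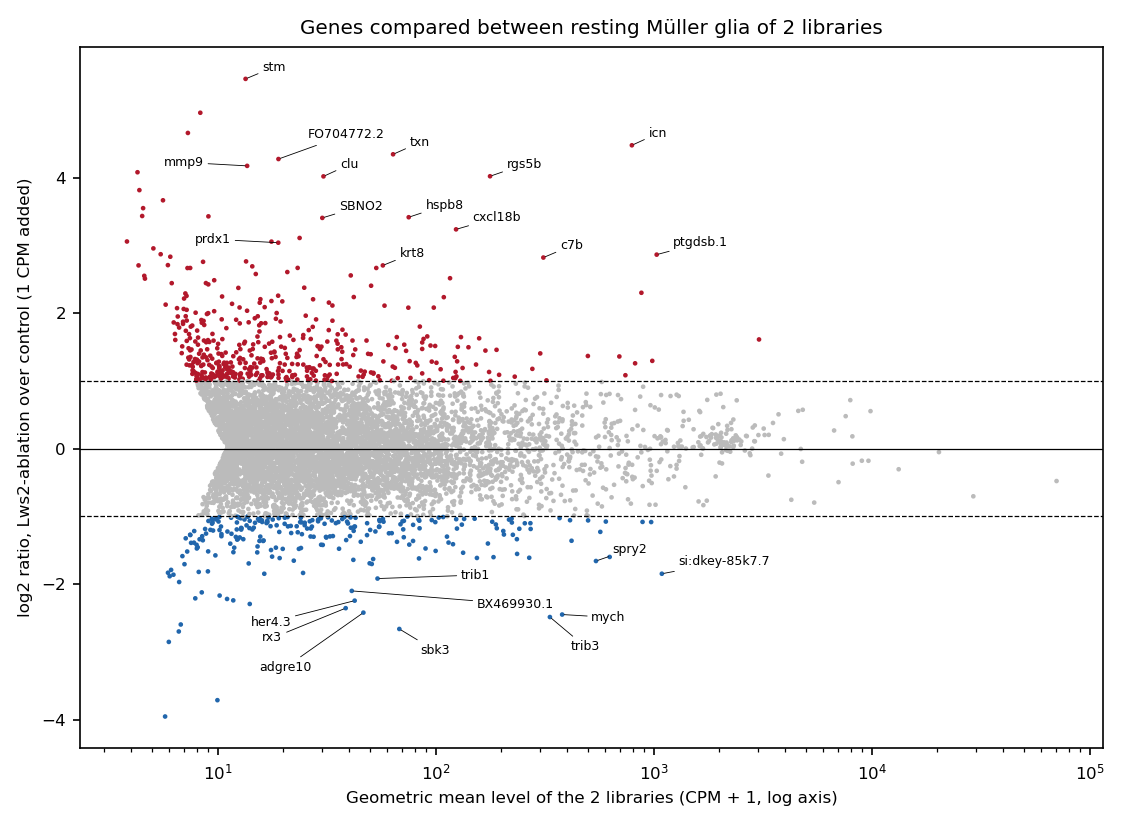
Each point is 1 of the 7065 genes compared; the x axis is the geometric mean of its levels in the Lws2-ablation and control libraries (CPM + 1, log axis) and the y axis is the log2 ratio of Lws2-ablation over control with 1 CPM added. Red points are the 448 genes at least 2-fold higher, blue points the 245 at least 2-fold lower, dashed lines mark 2-fold, and the labelled genes are from the 15 highest and 15 lowest at 50 CPM or more; icn and ptgdsb.1 combine a high ratio with a high level.

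The gene with the highest ratio among those at 50 CPM or more was stm, which encodes Starmaker, a protein known from the mineral of the ear's otoliths. It had 1154 UMIs (88.0 CPM) after Lws2-ablation and 25 UMIs (1.02 CPM) in the control, a log2 ratio of 6.43 (5.86 to 7.06). For shares of cells, every cell was thinned to 1500 UMIs, which left out 173 shallower resting glia after Lws2-ablation and 289 in the control. In the thinned cells stm was seen in 3.75% after Lws2-ablation and in 0.0649% of control cells, so its level came from few cells.

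By contrast, icn was seen in most resting glia of the Lws2-ablation library. It encodes ictacalcin, a calcium-binding protein of the S100 type, and it had 3749 CPM after Lws2-ablation, against 167 CPM in the control, a log2 ratio of 4.49 (4.44 to 4.53). In thinned cells it was seen in 74.9% (72.9 to 76.8%) after Lws2-ablation and in 8.80% (8.00 to 9.65%) of control cells. Its share among neurons, cells with at least 3 UMIs of elavl3 and elavl4 and a low glial level, was 6.40% after Lws2-ablation, against 1.17% in the control. These neurons had median depths of 5208 and 3438 UMIs in the same order. They were meant as a measure of RNA that does not belong to the cell, but they came from the same GFP sort. EGFP was seen in 24.7% of thinned neurons after Lws2-ablation, against 14.8% in the control. Their glula level was 339 CPM after Lws2-ablation, against 807 CPM in the control. Neurons are thus not a like background in the libraries, and how much of their glial RNA is their own was not tested.

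The chemokine, complement and interferon-type genes were the list with the highest median. This list was written with earlier results of these data known. The study had reported its members cxcl18b, cxcl14 and cd99 as higher after ablation in these same libraries. The rank and counts of the list are therefore a description and no independent support. Of its 22 members that were compared, 14 were higher after Lws2-ablation, none was lower, and the median log2 ratio was 1.99, while over all genes 6.34% were higher, 3.47% lower and the median was 0.05. Under all 17 alternative settings this median stayed between 1.01 and 2.06. The same shares over all genes apply to the counts of the other lists. The chemokine gene cxcl18b, which attracts neutrophils in zebrafish, had 380 CPM after Lws2-ablation, against 39.4 CPM in the control, a log2 ratio of 3.27 (3.17 to 3.37). It was seen in 20.3% of thinned cells after Lws2-ablation and in 2.66% of control cells. The other chemokine gene past 2-fold, cxcl14, had 133 CPM against 20.2 CPM in the control, while neurons had 32.1 CPM against 47.5 CPM in the control. In the same list cxcl12b was at 17.9 CPM after Lws2-ablation, against 25.2 CPM in the control.

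Both genes of complement component 7, part of the pore that complement forms in membranes, were higher. For c7b the level was 828 CPM after Lws2-ablation, against 116 CPM in the control (log2 ratio 2.83, 2.77 to 2.89), and 34.1% of thinned cells had it, against 10.0% in the control. For c7a there were 218 UMIs after Lws2-ablation and 1 UMI in the control, which gives a log2 ratio of 8.67 with a counting interval of 6.17 to 13.98. The complement gene c4b followed at 10.1 CPM against 0.327 CPM in the control. Unlike c7b, these 2 genes were seen in few cells. In thinned cells c7a was seen in 1.61%, against 0.0216% in the control, and c4b in 1.55%, against 0.0432%. The surface glycoprotein gene cd99 had 277 CPM after Lws2-ablation, against 47.6 CPM in the control, a log2 ratio of 2.54 (2.45 to 2.64), and was seen in 25.5% of thinned cells, against 4.56% in the control.

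Several interferon-type genes of the same list were higher, and shares of cells are given for rsad2 alone. The antiviral gene rsad2 had 49.9 CPM after Lws2-ablation, against 5.11 CPM in the control, but was seen in 1.18% of thinned cells, against 0.281% in the control. Its log2 ratio was 3.12 in resting glia with EGFP and -0.41 in those without. Over the 4 strata of the glula and apoeb level described below it ran between -0.99 and 3.61. Levels of ifi45 were 153 CPM against 49.1 CPM in the control, and those of its close relative ifi46 were 49.0 CPM against 11.8 CPM in the control, where reads that fit both genes cannot be told apart. For stat2, which passes on the interferon signal, they were 36.5 CPM against 7.28 CPM in the control. Antigen presentation genes differed among themselves: b2m had 35.6 CPM after Lws2-ablation, against 4.66 CPM in the control, whereas b2ml had 170 CPM against 183 CPM in the control.

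Markers of leukocytes were near the floor in both libraries. The microglial genes mpeg1.1, csf1ra, ptprc, lcp1 and coro1a had 22, 1, 26, 14 and 60 UMIs after Lws2-ablation, against 9, 2, 15, 0 and 18 UMIs in the control, whose sum was deeper. In CPM, mpeg1.1 (1.68 against 0.368 in the control), ptprc (1.98 against 0.613 in the control) and coro1a (4.57 against 0.736 in the control) were thus higher after Lws2-ablation, as the immune genes were. Of the 28 leukocyte markers in the files only apoc1 and tspan36 reached 10 CPM. The summed level of the list was 283 CPM after Lws2-ablation, against 95.1 CPM in the control, of which apoc1, a lipoprotein gene also used as a microglial marker, held 201 CPM against 46.6 CPM in the control. Leaving out the 39 cells after Lws2-ablation and the 20 control cells with any UMI of those 5 genes, an alternative chosen after seeing the data, left 431 genes higher and 244 lower, and a median of 1.97 for the chemokine, complement and interferon-type list. In that setting apoc1 came to a log2 ratio of 0.95 and the actin-binding gene pfn1 to 0.27, against 2.08 and 1.76 in all resting glia with 1 CPM added. Both, and the fatty acid binding gene fabp11a (35.7 CPM against 0.45 CPM in the control), were also within 2-fold among resting glia with EGFP, at 0.75, 0.17 and 0.92.

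**Figure D2:**
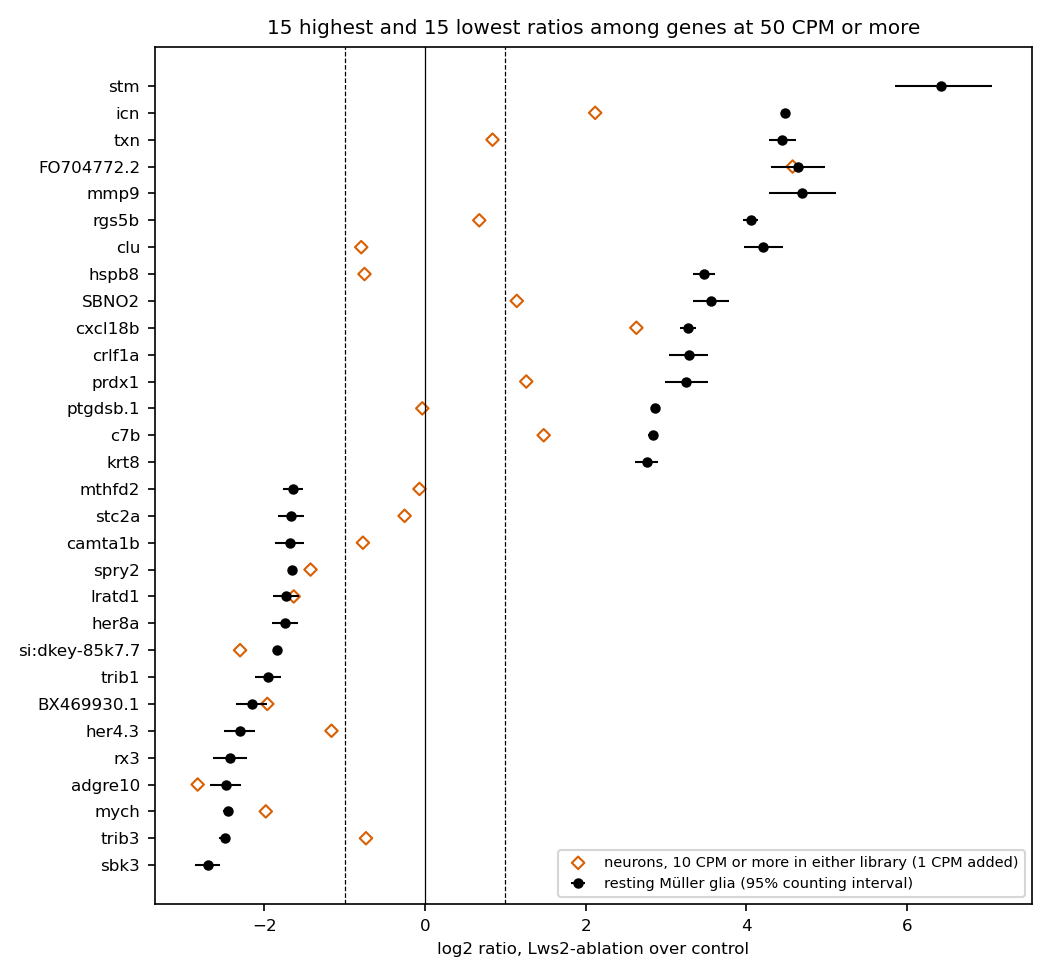
Black points are log2 ratios of Lws2-ablation over control in resting Müller glia (x axis) with 95% counting intervals for the 15 genes with the highest and the 15 with the lowest ratio at 50 CPM or more (rows, ordered with 1 CPM added); orange diamonds are the same genes in the neurons of the 2 libraries where they reached 10 CPM. FO704772.2 and si:dkey-85k7.7 were about as far apart in neurons as in glia, whereas clu, hspb8 and ptgdsb.1 were not higher in neurons.

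Cytokine signalling genes were also higher in part. Of 13 members of the Jak-Stat, leptin and interleukin list, 6 were higher and none lower, with a median of 0.71. The leptin gene lepb, which is induced in regenerating zebrafish tissue, had 595 UMIs after Lws2-ablation and 12 UMIs in the control (45.4 CPM against 0.491 CPM in the control, log2 ratio 6.53, 5.72 to 7.49), and it was seen in 3.80% of thinned cells, against 0.0216% in the control. The cytokine gene crlf1a had 68.8 CPM against 7.08 CPM in the control. Its receptor partner il6st, the shared receptor chain of the interleukin-6 family, had 71.2 CPM after Lws2-ablation, against 22.9 CPM in the control. Downstream, the feedback inhibitor gene socs3b was higher at 1271 CPM against 529 CPM in the control, while stat3 itself had 41.1 CPM against 25.5 CPM in the control, and cish 807 CPM against 881 CPM in the control. SBNO2, a transcriptional coregulator, was among the 15 highest genes at 97.3 CPM against 8.26 CPM in the control.

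The growth factor gene tgfb3 had 62.7 CPM after Lws2-ablation, against 18.8 CPM in the control. The matrix metalloprotease gene mmp9, whose product cuts collagen and is produced by injured zebrafish retina, had 57.0 CPM after Lws2-ablation, against 2.21 CPM in the control, a log2 ratio of 4.69 (4.29 to 5.12). It was seen in 3.21% of thinned cells after Lws2-ablation and 0.151% of control cells.

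Genes of the reactive cytoskeleton were higher in part. Keratin genes krt8 (145 CPM after Lws2-ablation, 21.4 CPM in the control) and krt18a.1 (153 CPM against 35.4 CPM in the control) were higher, whose products pair in 1 filament type. The glial filament genes gfap (476 CPM against 372 CPM in the control) and vim (143 CPM against 128 CPM in the control) lay within 2-fold. The whole list of 8 filament genes had 2 members higher, none lower and a median of 0.25, which became -0.05 with TMM scaling. Of 27 actin, myosin and S100-annexin genes 5 were higher: icn, anxa1a, pfn1, myl6 and s100a10b. The actin gene actb2 had 4136 CPM against 7175 CPM in the control.

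Prostaglandin D synthase genes, also known as carriers of small lipophilic molecules, were high in both libraries and higher after Lws2-ablation. Levels of ptgdsb.1 were 2784 CPM after Lws2-ablation, against 381 CPM in the control (log2 ratio 2.87, 2.84 to 2.90), and those of its close copy ptgdsb.2 were 5319 CPM against 1738 CPM in the control (1.61, 1.60 to 1.63). Reads that fit both of these near-identical genes cannot be told apart, so the division of the level between them is uncertain. In thinned cells ptgdsb.1 was seen in 66.9% of cells, against 24.3% in the control, and ptgdsb.2 in 86.4%, against 59.1% in the control. The enzyme genes pla2g4aa, which frees the substrate, and ptges, which makes prostaglandin E, were also higher. With TMM scaling these 2 were within 2-fold (0.91 and 0.92). The cyclooxygenase gene ptgs2b was lower at 8.54 CPM after Lws2-ablation, against 20.8 CPM in the control.

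**Figure D3:**
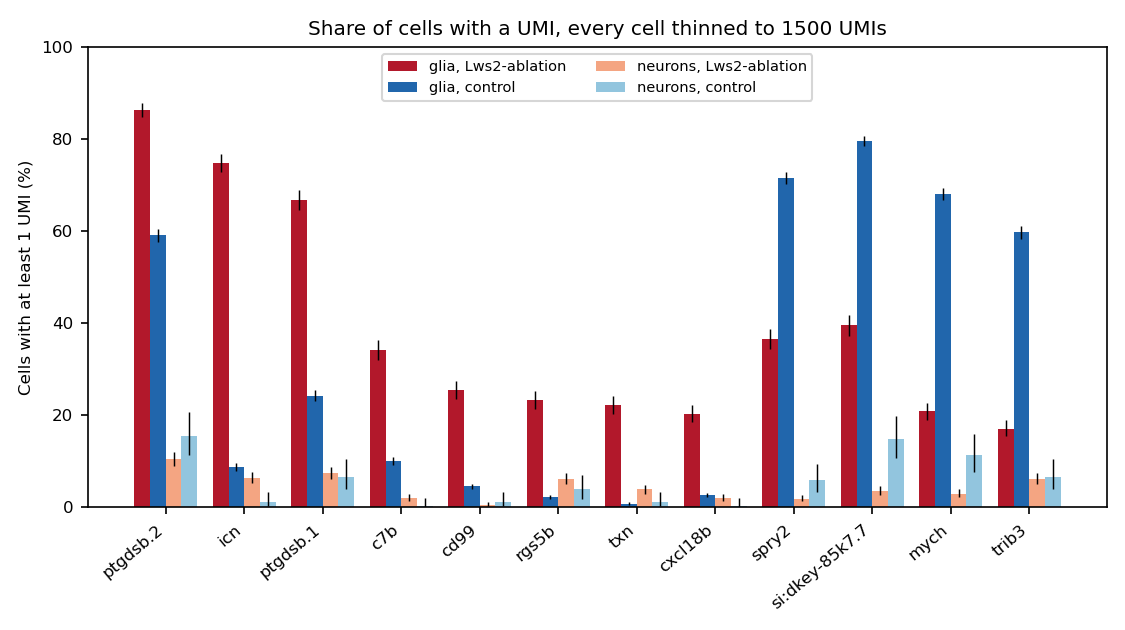
Bars give the percentage of cells with at least 1 UMI of each gene (y axis) after every cell was thinned to 1500 UMIs and shallower cells were left out, in 1868 resting glia and 1563 neurons of the Lws2-ablation library and 4626 resting glia and 256 neurons of the control library, with exact 95% binomial intervals. In glia icn was seen in 74.9% of cells, against 8.80% in the control, and trib3 in 17.1%, against 59.8% in the control, while all 12 genes stayed at 15.6% or below in neurons.

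Antioxidant genes showed 2 members far above the rest of their list. The thioredoxin gene txn had 286 CPM after Lws2-ablation, against 13.1 CPM in the control, a log2 ratio of 4.45 (4.28 to 4.62), and was seen in 22.2% of thinned cells, against 0.821% in the control. The peroxiredoxin gene prdx1, whose product is reduced by thioredoxin, had 53.4 CPM against 5.60 CPM in the control. With hmox2a and blvrb, genes of haem breakdown, 4 of 31 members were higher, none was lower, and the median was 0.49. The metallothionein gene mt2 was abundant in both libraries at 11970 CPM against 8147 CPM in the control.

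Heat shock genes differed among themselves. The small heat shock gene hspb8 was higher at 245 CPM after Lws2-ablation, against 22.0 CPM in the control (log2 ratio 3.48, 3.34 to 3.61) and so was hspb1 at 1114 CPM against 433 CPM in the control. The third small heat shock gene past 2-fold, hspb6, was lower at 22.8 CPM against 49.9 CPM in the control. The chaperone genes hsp90b1 (43.1 CPM against 12.8 CPM in the control) and dnajb4 (66.6 CPM against 29.4 CPM in the control) were higher. The highly abundant hsp70 genes differed little, with hsp70l at 20000 CPM after Lws2-ablation, against 20700 CPM in the control, although reads that fit several hsp70 copies cannot be told apart. Over 31 members 5 were higher, 1 was lower and the median was 0.17, or -0.13 with TMM scaling.

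AP-1 and other immediate early genes, which the dissociation of tissue can also raise, mostly lay within 2-fold. Of 29 members 3 were higher, 1 was lower and the median was 0.05, which became -0.25 with TMM scaling. The most abundant, fosab and jun, had 9086 and 5936 CPM after Lws2-ablation, against 10275 and 8356 CPM in the control. The AP-1 gene fosl2 was higher at 230 CPM against 72.7 CPM in the control, and so was dusp5, a phosphatase of the Erk kinases, at 50.5 CPM against 7.44 CPM in the control. The mRNA decay gene zfp36l1b was the lower member at 610 CPM against 1291 CPM in the control.

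Lipid and engulfment genes were mostly above the median of all genes. Of 17 apolipoprotein, fatty acid binding and cholesterol genes 5 were higher and 1 lower, with a median of 0.72. The chaperone and apolipoprotein gene clu had 122 CPM after Lws2-ablation, against 6.58 CPM in the control, although its neurons had 63.8 CPM against 111 CPM in the control. The sterol sensor gene insig1 had 57.6 CPM against 8.22 CPM in the control, and the cholesterol exporter gene abcg1 was the lower member at 4.12 CPM against 22.8 CPM in the control. Of 27 engulfment genes 3 were higher and none lower, with a median of 0.62: the clearance receptor genes lrp1aa (161 CPM against 50.5 CPM in the control) and lrp1ab (39.9 CPM against 17.0 CPM in the control), and plxnb1b, a semaphorin receptor gene. With TMM scaling lrp1ab (0.87) and plxnb1b (0.89) were within 2-fold. The phagocytosis receptor gene mertka had 99.6 CPM after Lws2-ablation, against 128 CPM in the control, and the lysosomal protease gene ctsla had 1563 CPM against 911 CPM in the control.

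The gene rgs5b, whose product dampens signals through G proteins, had 714 CPM after Lws2-ablation, against 43.0 CPM in the control (log2 ratio 4.05, 3.96 to 4.15) and 23.3% of thinned cells, against 2.31% in the control. FO704772.2, for which the files give no name or role, had 82.6 CPM against 3.31 CPM in the control in glia and 76.0 CPM against 2.22 CPM in the control in neurons. The ribosomal gene rpl26 was also higher in both cell types, at 167 CPM against 57.8 CPM in the control in glia and 283 CPM against 80.8 CPM in the control in neurons, and it was the only one of 80 ribosomal protein genes past 2-fold. All 13 mitochondrial genes had positive log2 ratios, also with TMM scaling except mt-co1 (0.30 before), and 4 were past 2-fold. Of the 448 higher genes 70 (15.6%) were also at least 2-fold higher in neurons of the same libraries, against 186 (2.63%) of all genes compared. Of the 245 lower genes 72 (29.4%) were also at least 2-fold lower there, against 484 (6.85%) of all genes compared. The glula level of neurons differed between the libraries too, and the part of glial RNA in these counts was not tested.

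**Figure D4:**
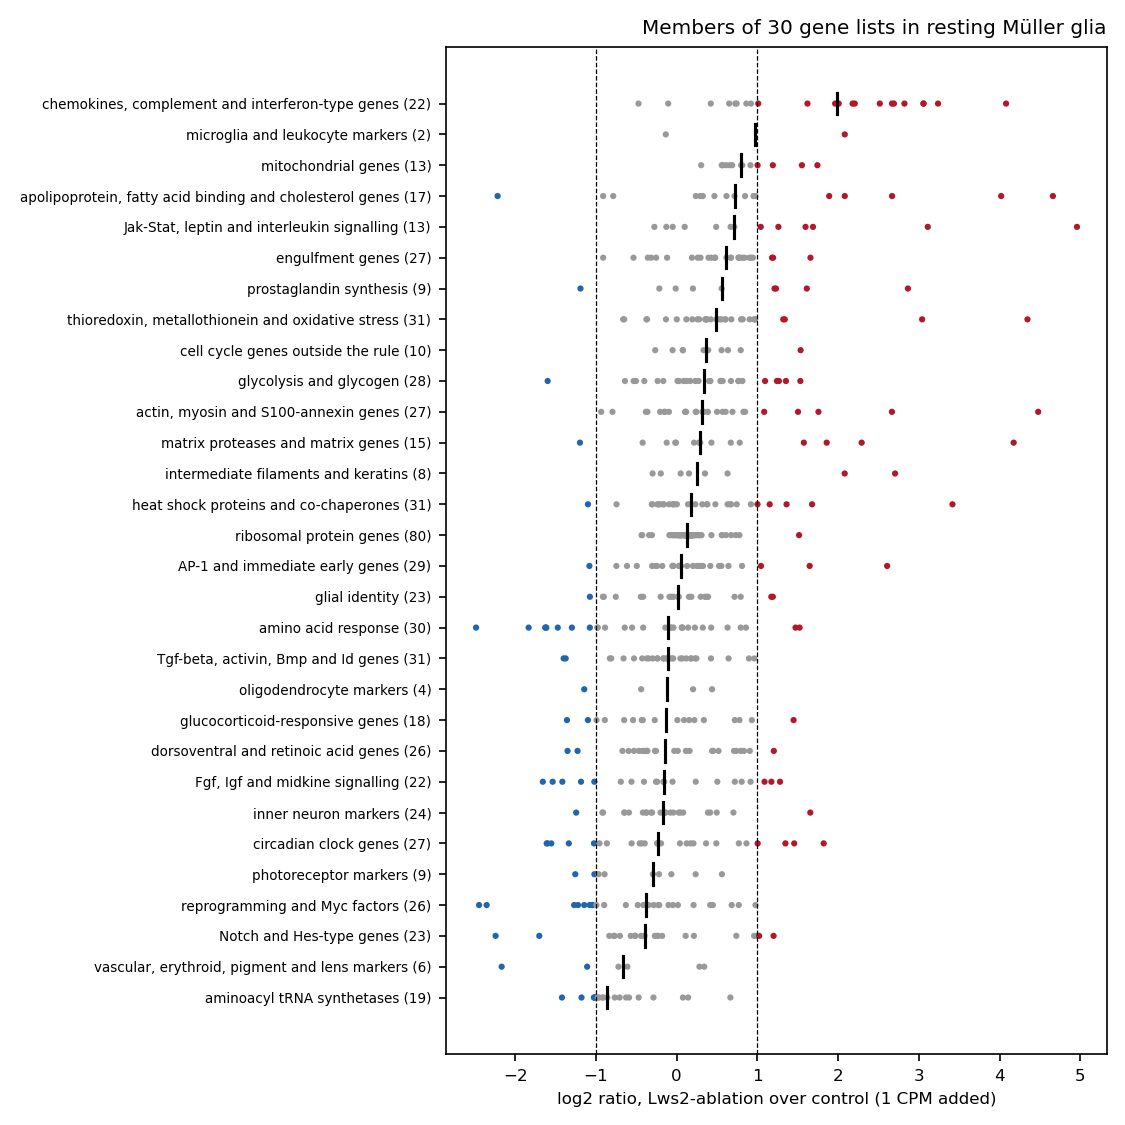
Each point is a gene of 1 of 30 lists (rows, with the number of members compared) at its log2 ratio of Lws2-ablation over control with 1 CPM added (x axis); red and blue points are at least 2-fold higher and lower, dashed lines mark 2-fold and black bars are list medians. The medians ran between 1.99 for chemokine, complement and interferon-type genes and -0.86 for aminoacyl tRNA synthetases.

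Genes of the amino acid response were more often lower than higher. Cells make these products when amino acids run short or unfolded proteins build up, under the transcription factor Atf4. The pseudokinase gene trib3, a target of Atf4, had 140 CPM after Lws2-ablation, against 789 CPM in the control, a log2 ratio of -2.49 (-2.56 to -2.42). It was seen in 17.1% of thinned cells after Lws2-ablation and in 59.8% of control cells. Its relative trib1 had 26.8 CPM against 104 CPM in the control. Of 30 members of the list 8 were lower and 2 higher, with a median of -0.11.

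The lower members included enzyme and transporter genes of amino acid and folate metabolism, mthfd2 (46.8 CPM after Lws2-ablation, 146 CPM in the control) and slc1a4 (12.0 CPM against 45.5 CPM in the control), and the secreted glycoprotein gene stc2a (28.4 CPM against 89.8 CPM in the control). The serine synthesis gene psph (159 CPM against 54.8 CPM in the control) and the stress regulator gene nupr1a (143 CPM against 51.0 CPM in the control) were higher. The 2 genes of Atf4 itself differed in sign, with atf4a at 164 CPM against 94.3 CPM in the control and atf4b at 735 CPM against 1077 CPM in the control.

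Aminoacyl tRNA synthetases, which load amino acids onto tRNAs and are partly under the same control, had the lowest median of all lists at -0.86. Of 19 members 5 were lower and none higher, and 3 had a log2 ratio above 0. The tyrosine enzyme gene yars had 17.5 CPM after Lws2-ablation, against 48.6 CPM in the control (log2 ratio -1.47, -1.68 to -1.27), and the lysine enzyme gene kars had 71.6 CPM against 146 CPM in the control (-1.03, -1.13 to -0.92), within 2-fold under 9 of the 17 alternatives. In neurons kars had 63.5 CPM against 67.5 CPM in the control.

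In the list of Fgf, Igf and midkine genes 5 of 22 were lower and 3 (ptn, fgfr1b and igfbp3) higher, with a median of -0.16. The feedback inhibitor gene spry2 of the Fgf pathway had 305 CPM after Lws2-ablation, against 964 CPM in the control, a log2 ratio of -1.66 (-1.71 to -1.61), and 36.6% of thinned cells had it, against 71.5% in the control. Its relative spry4 (180 CPM against 410 CPM in the control), the Erk phosphatase gene dusp6 (77.5 CPM against 226 CPM in the control), the transcription factor gene etv5b (45.3 CPM against 122 CPM in the control) and the ligand gene fgf8a (29.1 CPM against 60.0 CPM in the control) were lower too. The ligand gene fgf24, which marks central glia, was within 2-fold at 412 CPM against 665 CPM in the control.

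Of 26 transcription factor genes of the eye field and of reprogramming 8 were lower and none was higher. The lower members were mych, rx3, neurog1, lhx2b, olig2, sox9b, sox3 and myca, and the median was -0.38. Among them olig2 was within 2-fold under 7 of the 17 alternatives. The Myc family gene mych had 162 CPM after Lws2-ablation, against 887 CPM in the control, a log2 ratio of -2.45 (-2.52 to -2.39), and was seen in 20.9% of thinned cells, against 68.1% in the control. The eye field gene rx3 had 16.1 CPM against 86.3 CPM in the control. The proneural gene ascl1a, which Müller glia need for regeneration, had 25.5 CPM after Lws2-ablation, against 14.5 CPM in the control, within 2-fold.

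Notch and Hes-type genes were mostly within 2-fold. The Hes-type genes her4.3 (18.5 CPM after Lws2-ablation, 91.4 CPM in the control) and her8a (27.2 CPM against 90.7 CPM in the control) were lower, though reads that fit several near-identical her4 copies cannot be told apart. The receptor gene notch3, among the most abundant of all, had 22940 CPM against 37319 CPM in the control. The Hes-type gene her12 had 812 CPM against 409 CPM in the control, just within 2-fold, and dla, a Notch ligand gene, was higher at 21.8 CPM against 8.92 CPM in the control. The receptor gene notch2, the other higher member, had 10.7 CPM against 4.79 CPM in the control and was within 2-fold under 8 of the 17 alternatives. Over 23 members 2 were higher, 2 were lower and the median was -0.40.

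Circadian clock genes, which follow the time of day, differed in both directions in 9 of 27 members. The repressor genes nr1d2a (153 CPM after Lws2-ablation, 468 CPM in the control) and bhlhe41 (105 CPM against 320 CPM in the control) and the light- or clock-driven genes usp2a and ciarta were lower, with bhlhe40 the fifth. The genes cry4, cry5, arntl1a and per2 were higher, such as per2 at 152 CPM against 75.5 CPM in the control, though per2 was within 2-fold under 6 of the 17 alternatives. Neurons had nr1d2a at 123 CPM against 349 CPM in the control and bhlhe41 at 30.4 CPM against 160 CPM in the control, so that both were also past 2-fold there. The hour of collection is not stated, and its part in these values was not tested. Of 18 genes listed as responsive to glucocorticoids, fkbp5 (261 CPM against 671 CPM in the control) and pdk2b were lower and sgk1 (278 CPM against 101 CPM in the control) was higher.

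Other lower genes had no list. The kinase gene sbk3 had the lowest ratio at 50 CPM or more, with 26.1 CPM after Lws2-ablation, against 170 CPM in the control (log2 ratio -2.70, -2.87 to -2.55). The most abundant of the 15 was si:dkey-85k7.7, at 574 CPM against 2064 CPM in the control in glia and 30.8 CPM against 156 CPM in the control in neurons. The adhesion receptor gene adgre10 had 19.1 CPM against 107 CPM in the control.

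Genes of glial identity were mostly within 2-fold. Cells of both libraries had to reach the same level of glula and apoeb, so likeness in other glial genes is partly set by that choice. Cells below that level are not covered. Of 23 members si:ch211-251b21.1 and rgra, an opsin-like gene, were higher and the adhesion gene hepacama lower, and the median was 0.02, or -0.29 with TMM scaling. The transporter and enzyme genes glulb (8687 CPM against 7652 CPM in the control), cahz (724 CPM against 770 CPM in the control) and atp1a1b (919 CPM against 902 CPM in the control) differed little, as did slc1a2b. The gap junction gene cx43 had 359 CPM after Lws2-ablation, against 677 CPM in the control. The rule genes themselves were at 12665 CPM against 19596 CPM in the control for glula, which makes glutamine, and at 19844 CPM against 17336 CPM in the control for apoeb, the zebrafish apolipoprotein E.

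Ratios were also computed within glia of like regional marks, since fgf24 is known from central, rdh10a from ventral and efnb2a from dorsal glia. Cells with a UMI of fgf24 and none of rdh10a numbered 973 after Lws2-ablation and 2172 in the control. Those with rdh10a and no fgf24 numbered 276 and 711 in the same order, and those with efnb2a alone 54 and 119. Cells with both fgf24 and rdh10a were in none of these strata. Of all resting glia 65.9% had fgf24 after Lws2-ablation, but 47.7% had it without rdh10a, against 72.3% and 44.2% in the control. For rdh10a, 31.7% had it and 13.5% had it without fgf24, against 42.5% and 14.5% in the control. The marks thus do not part the cells cleanly, and depth differed, with medians of 7098 and 4785.5 UMIs in the first stratum. All 15 highest genes were past 2-fold in each of these 3 strata, and 15, 13 and 12 of the 15 lowest. In the first stratum icn had 4089 CPM against 235 CPM in the control and trib3 126 CPM against 793 CPM in the control. In the second icn had 2244 CPM against 72.2 CPM in the control and trib3 201 CPM against 743 CPM in the control. The exceptions were camta1b and stc2a in cells with rdh10a, and camta1b, stc2a and mthfd2 in those with efnb2a, where stc2a had 1 UMI after Lws2-ablation and 2 UMIs in the control. The strata hold the same cells as the sums and are no independent support.

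**Figure D5:**
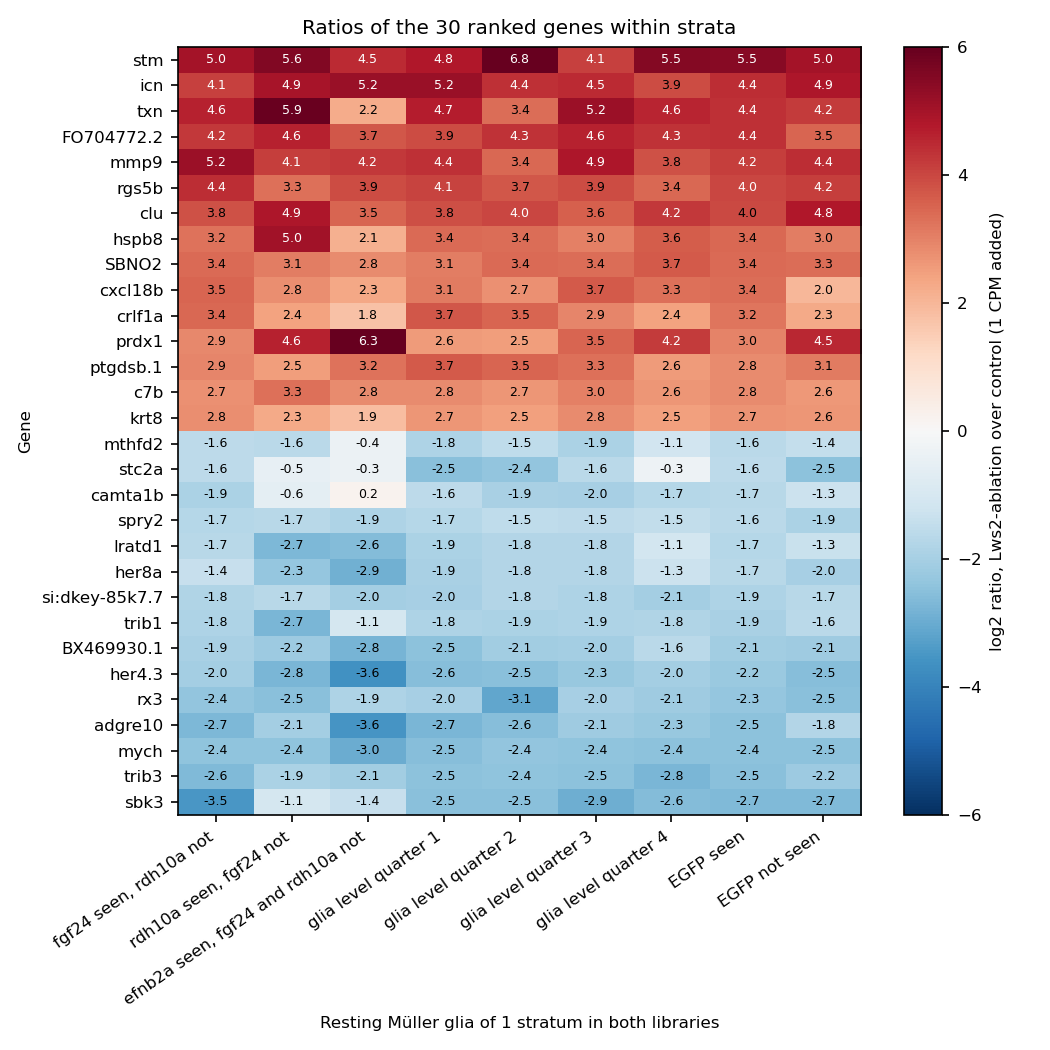
Colours and printed values are log2 ratios of Lws2-ablation over control with 1 CPM added for the 15 highest and 15 lowest genes (rows) within strata of resting Müller glia (columns) by regional marker, by 4 strata of the combined glula and apoeb level and by EGFP. All 15 upper genes are past 2-fold in all 9 strata, and the cells near 0 are camta1b, stc2a and mthfd2 in the smaller strata and stc2a in the stratum with the highest glial level.

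Strata of the combined glula and apoeb level were then cut at 241, 331 and 449 per 10000 UMIs over both libraries. The lowest stratum held 603 cells after Lws2-ablation and 1136 in the control, and the highest 402 and 1337 in the same order. All 15 highest genes were past 2-fold in all 4 strata, as were 15, 15, 15 and 14 of the 15 lowest, stc2a being the exception. These strata are cut on the level that chose the cells, and the genes were ranked on the same cells. Their likeness across strata is therefore no independent support. Some levels moved with the stratum in the Lws2-ablation library: rgs5b had 938 CPM in the lowest stratum and 182 CPM in the highest, against 55.2 and 16.1 CPM in the control, and cd99 had 333 and 133 CPM, against 47.5 and 33.6 CPM in the control. The Fgf feedback gene spry2 had 195 and 470 CPM in the lowest and highest stratum after Lws2-ablation, against 639 and 1326 CPM in the control.

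Glia were also parted by cd99, a split chosen after seeing the data. Among thinned cells 476 of 1868 after Lws2-ablation (25.5%) and 211 of 4626 in the control (4.56%) had a UMI of cd99. In the Lws2-ablation library rgs5b had 930 CPM in cells with cd99 and 411 CPM in cells without, c7b 1176 and 540 CPM, and txn 422 and 216 CPM. Other higher genes did not rise with cd99 there, such as ptgdsb.1 at 2581 and 3084 CPM and ifi45 at 144 and 154 CPM in the same order. In the control rgs5b had 164 CPM in cells with cd99 and 33.1 CPM in cells without, and txn 60.0 and 5.44 CPM. Levels of trib3 did not follow the split, at 143 and 133 CPM after Lws2-ablation and at 837 and 803 CPM in the control. Cells without cd99 thus also differed between the libraries, with icn at 3325 CPM after Lws2-ablation, against 117 CPM in the control.

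Resting glia of the library labelled Sws2-ablation, 1391 cells chosen by the same rule, are set beside these values. EGFP was seen in 0.791% of them, which goes against a label of gfap:GFP cells. Ratios of both ablation libraries are over the same control, so their likeness is not independent. The level of cxcl18b was 380 CPM after Lws2-ablation, 259 CPM in the library labelled Sws2-ablation and 39.4 CPM in the control, and that of c7b was 828, 702 and 116 CPM in the same order. The level of trib3 was 140, 128 and 789 CPM, and that of spry2 305, 278 and 964 CPM. Some genes set the ablation libraries apart, such as icn at 3749, 1561 and 167 CPM, insig1 at 57.6, 9.18 and 8.22 CPM and stm at 88.0, 200.5 and 1.02 CPM.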

How the data were processed

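For each library the authors deposited a matrix of unnormalised UMI counts by gene and barcode, made with Cell Ranger (2.1.1 in the submitters' processing notes, 3.0.2 in the matrix headers) against GRCz11 with EGFP and RFP added. Cells with 200 to 3500 genes and at most 20% mitochondrial UMIs (control) or 200 to 4500 genes and at most 35% (Lws2-ablation) were kept, following the study's limits. No doublet caller was run, and leaving out the 10% of cells with most UMIs served as an alternative. Counts were summed over resting glia of each library and given as CPM. Genes at 10 CPM or more in either library were compared. Named are the 15 highest and 15 lowest ratios at 50 CPM or more (mitochondrial genes and transgenes aside), up to 4 called genes a list and direction, the rule genes and regional markers, and genes named beyond that were chosen after their values were seen. The members, the 28 lists written by hand and the alternatives were chosen with earlier results of these data known. Lists are described by counts and medians only, and some of their members are counted there but not reported here by name. The calculation was tested on simulated data. The analysis used Python 3.11.15, numpy 2.4.6, scipy 1.17.1, R with edgeR for the TMM factors, and matplotlib 3.10.9.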

Additional observations from a re-analysis of the deposited data

How the results depend on the processing

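The counts of 448 genes higher and 245 lower after Lws2-ablation stayed within 1.5 times under 10 (higher) and 11 (lower) of 15 alternatives chosen with the design, and under both added after seeing the data, which kept cells without microglial UMIs and cells of 4000 to 8000 UMIs. TMM scaling gave 240 higher and 629 lower, and adding 5 CPM gave 270 and 142. Genes at 50 CPM or more gave 120 and 99 of only 2397 genes compared, and genes at 1 CPM or more gave 1165 higher of 13188. The counts of 448 and 245 are of 7065 genes, so these counts moved along with the number of genes compared. The 186 and 485 cells with at most 2 neuronal UMIs gave 982 and 1072. In these few cells pfklb (-1.30), arntl1a (-1.73), igfbp3 (-0.050), ppp1r15a (-0.11) and notch2 (-0.80) came out below 0 on the log2 scale with 1 CPM added. Above 0 on that scale were gnat2 (1.59), gngt2a (1.87), hepacama (0.039) and crygm2d1 (0.14). At a glial threshold of 300, gnat2 came to 0.065. The cause was not tested. Of the 30 ranked genes, 29 were past 2-fold in all 17 alternatives, and stc2a came to -0.94 in thinned cells. Among these alternatives, the limits of 50 CPM and 1 CPM change which genes are compared and cannot move the ratio of a single gene. Of all 122 named genes past 2-fold, 51 were within 2-fold under at least 1 alternative, among them gnat2 under 13, kars under 9 and notch2, igfbp3 and crybb1 under 8 each. Glia chosen by 5 other markers gave 439 genes higher and 220 lower, of which 389 and 204 were also called by the rule. As many cells were taken as under the rule. Of the rule's 2041 cells after Lws2-ablation 1626 were among them, and of its 4915 control cells 4337. The likeness is therefore largely set by shared cells and is no independent support. No paired analysis was possible because each condition has 1 library. With 1 library a side, differences of line, pool, kit, depth and hour cannot be told apart from the ablation. Promoter sequences were not analysed here, so the planned motif counts were not run.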

Other observations

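Energy genes and patterning genes differed in a minority of members, and over all genes 6.34% were higher and 3.47% lower. Of 28 glycolysis and glycogen genes 5 were higher after Lws2-ablation and 1 lower, with a median log2 ratio of 0.34. The higher ones included the phosphofructokinase regulator gene pfkfb4b (234 CPM after Lws2-ablation, 98.5 CPM in the control) and pgam1a (125 CPM against 51.2 CPM in the control). With TMM scaling both were within 2-fold (0.94 and 0.96), and the list's median was 0.03. The glycogen primer gene gyg1b was the lower member at 360 CPM against 1091 CPM in the control. Neurons had 7.74 CPM of it against 146 CPM in the control. These levels came from few cells: 19 of 1563 thinned neurons after Lws2-ablation and 12 of 256 in the control had it. Of 31 Tgf-beta, activin, Bmp and Id genes none was higher and 2 were lower: the activin subunit gene inhbab (106 CPM against 281 CPM in the control, log2 ratio -0.74 in cells of 4000 to 8000 UMIs) and bmp2b (40.3 CPM against 106 CPM in the control). Of 26 dorsoventral and retinoic acid genes foxg1b (371 CPM against 869 CPM in the control) and crabp2a were lower and cav1 higher. The ventral marker rdh10a had 262 CPM after Lws2-ablation, against 396 CPM in the control, and igf2b 216 CPM against 256 CPM in the control.

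Genes of neurons were low and mostly within 2-fold in resting glia. Of 9 photoreceptor markers compared 2 were lower and none higher, and the opsin gene opn1lw2 of the ablated cones had 46.1 CPM after Lws2-ablation, against 39.0 CPM in the control. Of 24 inner neuron markers gng13b was higher (26.0 CPM against 7.57 CPM in the control) and gad1b lower (13.1 CPM against 32.4 CPM in the control). Of 4 oligodendrocyte markers olig2 was lower, though within 2-fold under 7 of the 17 alternatives. Of 6 vascular, pigment and lens markers the crystallin genes crybb1 and crygm2d1 were lower. Haemoglobin genes hbaa1 and hbba1 had 0 UMIs in both libraries. Of 15 matrix genes 4 were higher and 1 lower. Of 10 cell cycle genes outside the rule tubb2b was the only one higher, at 121 CPM against 41.1 CPM in the control. Of these 10, 8 had a log2 ratio above 0, and the median was 0.36, or 0.06 with TMM scaling. The cells were chosen for few UMIs of the proliferation genes, which limits what this list can show. Of those genes mki67, top2a, cdk1 and mcm5 had 42, 27, 20 and 36 UMIs after Lws2-ablation. The deeper control had 14, 12, 9 and 27 UMIs in the same order. For pcna the levels were 52.75 CPM against 49.41 CPM in the control.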
